A study of Mus musculus with 27 samples.

Results

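Glycolysis and lactate export were followed through 10 genes in mouse splenic B cells: Slc2a1, Hk2, Pfkp, Aldoa, Gapdh, Pgk1, Eno1, Pkm, Ldha and Slc16a1. The members were chosen by gene name, from the route that takes glucose into the cell, through glycolysis and out again as lactate. They occupied 11 of the rows given for 54532 genes, because the name Aldoa stands on a second row, ENSMUSG00000114515 (chromosome 7, 126800790 to 126809108, mm10), which held at most 11 reads in any library of the first experiment and 8 in any of the second, and was not analysed further. The B cells came from spleens of wild-type C57BL6 mice, were purified by negative selection on magnetic beads and were cultured for 3 h, and the messenger RNA of each culture was sequenced. Negative selection leaves the cells untouched but removes other cells only as far as the antibody mixture reaches. LPS, a bacterial lipopolysaccharide that activates B cells through Toll-like receptor 4, served as the T-cell-independent stimulus, and IL-4+anti-CD40 (written IL4CD40 below, as in the sample names), a cytokine with an antibody that crosslinks CD40, served as the T-cell-dependent one. In the first experiment 5 groups of 4 biological replicates were sequenced: unstimulated cells, LPS with vehicle, LPS with disulfiram (DSF, 1 µM), IL4CD40 with vehicle, and IL4CD40 with DSF. The labels of the unstimulated libraries of that experiment name no vehicle. A second experiment gave 7 single libraries: unstimulated cells in DMSO, each stimulus in DMSO, and each stimulus with 1 µM DSF or 1 µM ibrutinib. DSF is a drug used against alcohol dependence that blocks aldehyde dehydrogenase, and ibrutinib is a covalent inhibitor of Bruton's tyrosine kinase. No group received DSF or ibrutinib without a stimulus. The comparisons address how the route responds to each stimulus and how the inhibitor changes that response.

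Glycolysis splits glucose into pyruvate in the cytosol, and lactate dehydrogenase can reduce the pyruvate to lactate, which leaves the cell with a proton through a monocarboxylate transporter. Resting B cells use little glucose, and activation by either kind of stimulus is known to raise glucose uptake and lactate output before the cells divide. Slc2a1 encodes the glucose transporter GLUT1. Hk2 encodes hexokinase 2, which traps glucose as glucose 6-phosphate, and Pfkp encodes the platelet-type subunit of phosphofructokinase, the enzyme of the committed step. Aldoa (aldolase A), Gapdh (glyceraldehyde-3-phosphate dehydrogenase), Pgk1 (phosphoglycerate kinase 1), Eno1 (enolase 1) and Pkm (pyruvate kinase M) carry the intermediate down to pyruvate. Ldha encodes the A subunit of lactate dehydrogenase, and Slc16a1 encodes the monocarboxylate transporter MCT1. Several of these genes are known targets of the hypoxia-inducible factors, which bind the 5-base core ACGTG (or, with G in the first place, GCGTG), and of Myc, which with its partner Max binds CACGTG.

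Promoter windows of 250 bases upstream of the RefSeq start (GRCm38.p6) were searched on both strands for these letters, and 4 are printed. Hk2, Ldha and Slc16a1 rose with each stimulus and fell with DSF, and Pgk1 is 1 of the members that rose with DSF. Slc2a1 and Aldoa rose more with DSF, and their windows, which hold 2 and 0 matches of the 5-base core, are not printed. Capitals mark either form of the 5-base core on either strand, which includes CACGTG, and each sequence runs 5′ to 3′ on the strand of the gene. The Hk2 window (chr6:82774455-82774704, minus strand) holds 2 matches of the core, the Slc16a1 window (chr3:104638414-104638663, plus strand) 4, the Ldha window (chr7:46845554-46845803, plus strand) 5 and the Pgk1 window (chrX:106186850-106187099, plus strand) 2. A CACGTG counts as 2 of these matches, 1 on each strand.
Hk2: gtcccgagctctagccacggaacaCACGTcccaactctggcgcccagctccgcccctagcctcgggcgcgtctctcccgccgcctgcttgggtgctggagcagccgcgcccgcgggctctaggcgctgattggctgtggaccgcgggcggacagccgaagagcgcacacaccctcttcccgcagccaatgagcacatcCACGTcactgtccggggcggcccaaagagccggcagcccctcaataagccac
Slc16a1: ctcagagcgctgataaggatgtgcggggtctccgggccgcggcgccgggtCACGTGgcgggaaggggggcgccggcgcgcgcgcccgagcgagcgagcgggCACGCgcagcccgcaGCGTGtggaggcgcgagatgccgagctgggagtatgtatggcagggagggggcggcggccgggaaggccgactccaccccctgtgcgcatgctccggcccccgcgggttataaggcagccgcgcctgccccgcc
Ldha: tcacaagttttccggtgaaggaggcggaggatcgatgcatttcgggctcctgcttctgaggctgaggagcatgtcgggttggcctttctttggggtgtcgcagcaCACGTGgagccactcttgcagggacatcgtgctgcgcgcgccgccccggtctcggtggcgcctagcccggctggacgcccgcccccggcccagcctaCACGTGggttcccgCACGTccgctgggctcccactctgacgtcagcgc
Pgk1: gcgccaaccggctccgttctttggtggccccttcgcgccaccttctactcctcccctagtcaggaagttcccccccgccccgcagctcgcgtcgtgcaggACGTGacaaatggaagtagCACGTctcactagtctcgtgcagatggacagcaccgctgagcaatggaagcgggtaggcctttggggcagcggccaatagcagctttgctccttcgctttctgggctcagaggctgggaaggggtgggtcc

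The Ldha, Aldoa and Gapdh windows lie inside the spans that the files give for these genes, upstream of the RefSeq start. Those of Slc2a1, Pkm and Pfkp overlap their spans in part. Among the 10 members, 8 windows held the core on either strand, the exceptions being Aldoa and Pkm, and 38.6% of 27025 promoter windows of the same length held one. CACGTG occurred in 2 of the 10, Ldha and Slc16a1, and in 6.05% of all windows. These counts describe the letters in the windows and say nothing of what binds there.

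In the mm10 build of the files the genes lie apart from each other. Slc2a1 (ENSMUSG00000028645) spans 119108711 to 119137983 and Eno1 (ENSMUSG00000063524) 150236721 to 150248879 on chromosome 4. Hk2 (ENSMUSG00000000628) spans 82725025 to 82774454 and Gapdh (ENSMUSG00000057666) 125161715 to 125166467 on chromosome 6. Ldha (ENSMUSG00000063229) spans 46841475 to 46855627 and Aldoa (ENSMUSG00000030695) 126795234 to 126800751 on chromosome 7. Slc16a1 (ENSMUSG00000032902) spans 104638668 to 104658462 on chromosome 3, Pkm (ENSMUSG00000032294) 59656368 to 59679375 on chromosome 9, Pfkp (ENSMUSG00000021196) 6579768 to 6648777 on chromosome 13 and Pgk1 (ENSMUSG00000062070) 106187100 to 106203699 on chromosome X. Reads were counted per gene, with no split by exon or isoform. Aldoa (with Fam57b), Gapdh (Iffo1), Hk2 (Gm17034), Pfkp (Pitrm1) and Slc2a1 (Gm12867 and Gm12868) overlap a gene on the opposite strand, and since the sources used here do not say whether strand was used in counting, reads in these overlaps cannot be told apart.

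The libraries of the first experiment held 17804851 to 23632992 reads assigned to genes (median 20348459). Depth in the second experiment was 16049295 to 24619776 reads. B-cell identity was clear in every group. The summed level of 5 B-cell markers, Cd79a and Cd79b among them, was 792 to 2793 FPKM in the first experiment. FPKM is the authors' unit, reads scaled by gene length and by a library factor other than the total of assigned reads. Markers of other cells were not absent, and no marker listed was at 0 in every library. The summed level of 5 myeloid markers was 317 to 427 FPKM in the unstimulated group of the first experiment and 79.2 to 145 in the other 4 groups, with Lyz2, the macrophage lysozyme, at a mean of 335 FPKM in the former and at 6.84 FPKM in the unstimulated library of the second experiment. T-cell markers summed to at most 2.46 FPKM and NK-cell markers to at most 2.05 in the first experiment.

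The 4 unstimulated libraries of the first experiment fell into 2 pairs. Replicates 1 and 2 stood above replicates 3 and 4 for all 10 members, by 2.19 times for Slc16a1, 1.83 for Aldoa, 1.82 for Ldha, 1.77 for Pgk1, 1.71 for Pfkp, 1.66 for Hk2, 1.48 for Eno1, 1.44 for Gapdh, 1.31 for Pkm and 1.29 for Slc2a1. Of 9721 genes with at least 100 reads in every unstimulated library, 19.35% differed by 1.5 times or more between these pairs. By the same rule within each group, the same split gave 0.0649% of 9252 genes for LPS and 3.71% of 9137 for IL4CD40. Neutrophil markers summed to 57.9 and 55.6 FPKM in unstimulated replicates 1 and 2 and to 11.1 and 16.7 in replicates 3 and 4, B-cell markers to 2024 and 1982 against 2793 and 2777, and erythroid markers to 3.73 and 2.97 against 15.6 and 17.7. The part of these cells in the split was not tested. Fits with replicates 1 and 2 alone and with replicates 3 and 4 alone are therefore given beside the comparisons with unstimulated cells, and the comparisons of DSF with vehicle do not use these libraries. The replicates of each group differed by more than the sampling noise of the reads, with a chi-square per gene of 2.86 to 90.8 over the 30 pairs within groups.

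The 10 genes together took a modest share of the reads. In unstimulated cells the share was 0.274%, 0.271%, 0.163% and 0.167% in replicates 1 to 4, in LPS-stimulated cells it was 0.238% to 0.243%, and in IL4CD40-stimulated cells it was 0.282% to 0.289%. With DSF it was 0.249% to 0.266% after LPS and 0.292% to 0.297% after IL4CD40. The unstimulated libraries of replicates 1 and 2 lay above the LPS range and replicates 3 and 4 below it. The summed level in FPKM, which differs from the read share in both length and library scaling, had a median of 492.6 in unstimulated cells. It was 638.2 with LPS, 823.4 with LPS and DSF, 714.5 with IL4CD40 and 876.9 with IL4CD40 and DSF. The ranges of each DSF group and its vehicle group did not overlap. The single libraries of the second experiment went the other way, with 745.8 FPKM after LPS and 654.6 with LPS and DSF, and 813.3 after IL4CD40 and 641.0 with IL4CD40 and DSF, and their shares of the reads were 0.284% and 0.208%, and 0.313% and 0.214%. In RNA from a bulk culture, a smaller number of cells of a type and less RNA per cell cannot be told apart.

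The order of the levels among the genes was similar at the top and changed lower down. It depends on the gene length by which the authors divided. That length was 13401 bases for Pfkp, 5379 for Eno1 and 4133 for Gapdh, where their longest protein-coding transcripts have 4145, 2027 and 1420. For Slc16a1 both lengths were 4426, and for Hk2 they were 5969 and 5513. In unstimulated cells Aldoa had the highest mean level at 146 ± 49.8 FPKM (SD, n = 4, as for all values of this form), followed by Ldha (95.7 ± 32.4), Pkm (79.0 ± 12.4), Pgk1 (73.0 ± 23.4) and Eno1 (64.4 ± 14.4), and each of these overlapped its neighbour in range. Slc2a1 (13.5 ± 2.03), Pfkp (7.90 ± 2.42), Slc16a1 (7.14 ± 3.08), Hk2 (3.74 ± 1.08) and Gapdh (2.85 ± 0.687) followed, of which Slc16a1, Hk2 and Gapdh each overlapped the gene above. With LPS, Slc16a1 and Hk2 moved up to ranks 6 and 7, above Slc2a1 and Pfkp, without overlap. With IL4CD40 they held the same ranks, but the range of Hk2 overlapped that of Pfkp, the next gene below. Ldha (196 ± 22.4 FPKM) had a higher mean than Aldoa (185 ± 26.9) with IL4CD40, with overlapping ranges. In both DSF groups the order began with Aldoa, Pgk1 and Ldha without overlap, Slc2a1 again stood above Slc16a1, with overlap after LPS, and Hk2 was back at rank 9. Gapdh was lowest in every group of the first experiment, and Hk2 was lowest in the unstimulated and DSF libraries of the second. The levels of Gapdh are uncertain: of 1321 windows of 100 bases along its transcript, 78.05% also occur in transcripts of 84 other annotated genes, so that reads from these windows cannot be placed on 1 gene, and Gapdh held only 192 to 891 reads per library in the first experiment while those 84 genes together held 142 to 331. The same holds in part for Pgk1 (67.03% of windows, 3 other genes) and Eno1 (59.02%, 4 other genes), although these had at least 2755 and 3374 reads.

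**Figure D1:**
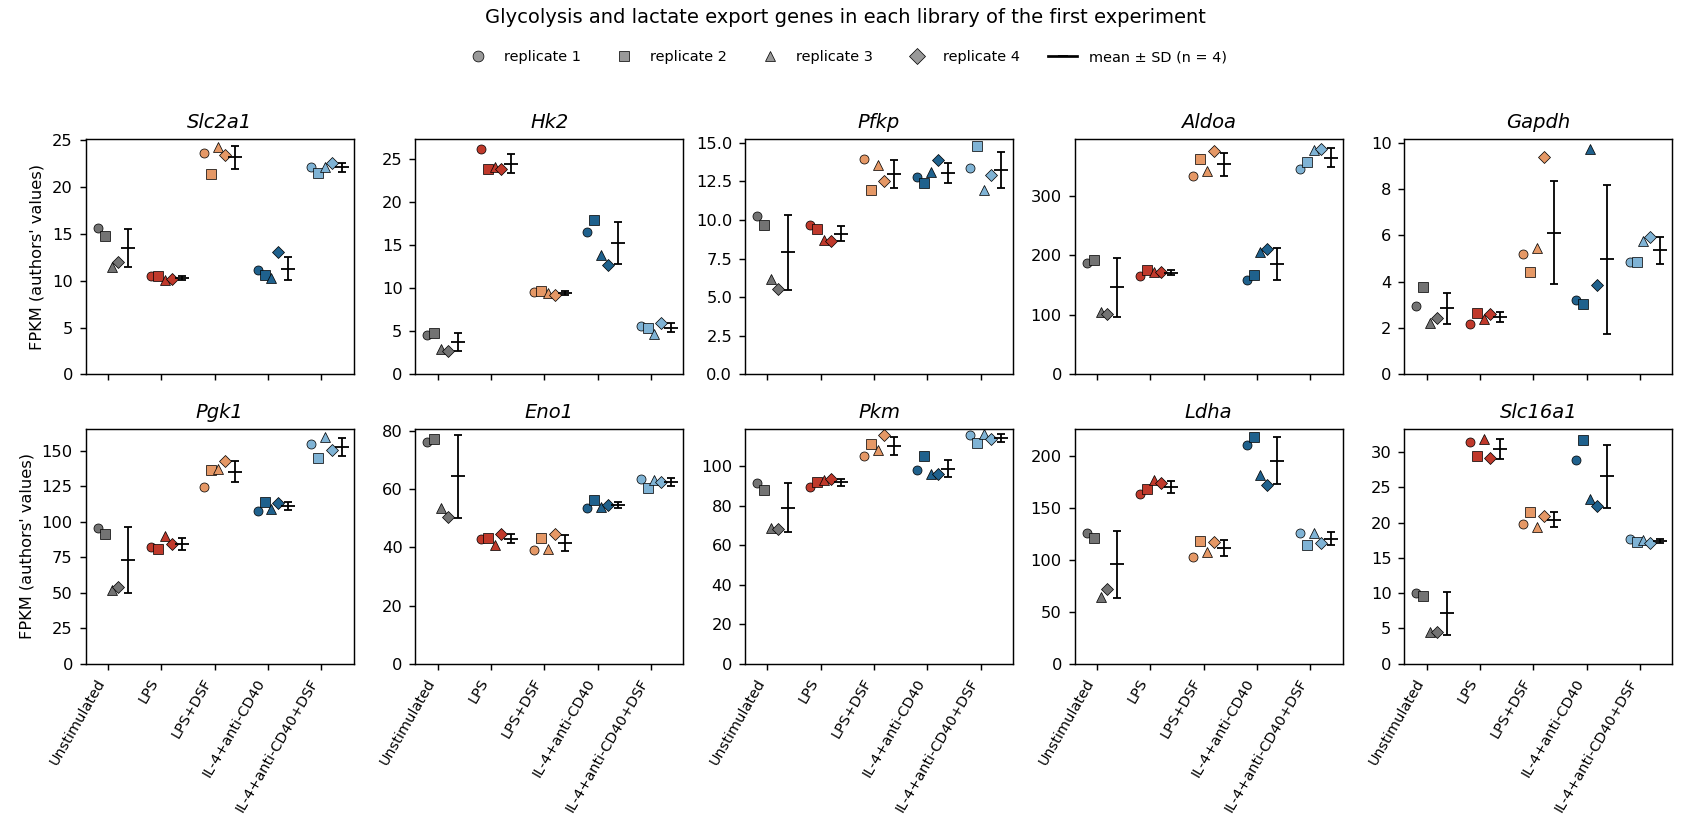
Level of each of the 10 genes in the first experiment (y axis, FPKM, linear and starting at 0) by group (x axis: unstimulated, LPS, LPS with DSF, IL4CD40, IL4CD40 with DSF), with 1 symbol per library by replicate number and the mean with its SD. Hk2, Ldha and Slc16a1 stand highest in the groups with a stimulus and vehicle, Slc2a1 and Aldoa in the DSF groups, and the unstimulated replicates 1 and 2 lie above replicates 3 and 4 in every panel.

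LPS raised the first kinase and the last 2 steps of the route and lowered 2 genes. Hk2 and Slc16a1 rose most, Ldha rose less, Eno1 and Slc2a1 fell, and Pfkp, Aldoa, Gapdh, Pgk1 and Pkm did not pass the test. Of the 10 members 3 were called higher and 2 lower at an adjusted p under 0.05 in edgeR's quasi-likelihood test, beside 29.6% and 33.3% of all 14477 genes tested, and the same 5 genes had groups that did not overlap (60.9% of all genes). The median log2 change was 0.23 for the members and -0.05 for all genes. Scaling by total reads, instead of by trimmed means, moved the median gene by -0.227 and the share of calls that were higher from 47.1% to 31.2%.

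At the entry step Slc2a1 stood at 15.6, 14.8, 11.5 and 12.0 FPKM in the unstimulated libraries and at 10.52, 10.46, 10.03 and 10.22 with LPS. All 4 LPS values lay below the lowest unstimulated one. The log2 change was -0.37 (SE 0.096, edgeR adjusted p = 0.00861), and with replicates 3 and 4 only the call was lost (-0.18, edgeR adjusted p = 0.0546). Hk2 stood at 4.58, 4.76, 2.91 and 2.72 FPKM unstimulated and at 26.1, 23.8, 24.1 and 23.8 with LPS. The LPS libraries were all far above the unstimulated ones, with a log2 change of 2.73 (SE 0.18, edgeR adjusted p = 4.70e-06), the largest among the 10 genes. Pfkp stood at 10.3, 9.68, 6.17 and 5.50 FPKM unstimulated and at 9.67, 9.43, 8.70 and 8.67 with LPS, so the LPS values fell between the pairs of unstimulated libraries (log2 change 0.23, edgeR adjusted p = 0.316).

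Among the middle enzymes, Aldoa and Pgk1 showed the same placement between the pairs of unstimulated libraries. Aldoa stood at 187, 192, 105 and 102 FPKM unstimulated and at 165, 175, 171 and 171 with LPS, and Pgk1 at 95.3, 91.1, 51.7 and 53.8 and at 82.1, 80.8, 89.9 and 84.4. For both genes, each LPS library was below unstimulated replicates 1 and 2 and above replicates 3 and 4, and the log2 changes were 0.24 and 0.23 (edgeR adjusted p = 0.329 and 0.334). Pkm stood at 91.5, 87.9, 68.4 and 68.2 FPKM unstimulated and at 89.3, 91.9, 92.8 and 93.3 with LPS (0.23, edgeR adjusted p = 0.0701), and 3 of these LPS libraries lay above all unstimulated ones. Eno1 differed from its neighbours, with 76.2, 77.4, 53.6 and 50.3 FPKM unstimulated and 43.0, 43.3, 40.9 and 44.5 with LPS. Here all LPS libraries lay below all unstimulated ones, and the log2 change was -0.57 (SE 0.14, edgeR adjusted p = 0.00624). Gapdh, with the limit given above, stood at 2.23 to 3.77 FPKM unstimulated and 2.19 to 2.63 with LPS (-0.19, edgeR adjusted p = 0.329).

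At the end of the route Ldha stood at 126, 121, 63.8 and 72.0 FPKM unstimulated and at 163, 168, 177 and 174 with LPS. Slc16a1 stood at 9.96, 9.65, 4.52 and 4.43 FPKM and at 31.5, 29.4, 31.9 and 29.2. The LPS libraries exceeded every unstimulated library for both genes. The log2 changes were 0.85 for Ldha (SE 0.21, edgeR adjusted p = 0.00649) and 2.11 for Slc16a1 (SE 0.27, edgeR adjusted p = 0.000175).

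IL4CD40 raised more of the genes than it left in place. Hk2, Slc16a1 and Ldha again rose most, Pfkp, Pgk1 and Pkm rose, none fell, and Slc2a1, Aldoa, Gapdh and Eno1 did not pass the test. The 6 members called higher and 0 called lower stand beside 30.4% and 32.1% of 14433 genes, and 6 had groups that did not overlap, beside 60% of all genes. The median log2 change of the members was 0.69, against -0.04 for all genes, and total-read scaling moved the median gene by -0.15 and the share of calls that were higher from 48.6% to 38.3%. With total reads Pgk1 and Pkm lost the call, and with all 20 libraries in the fit 2 members were called lower. This comparison and the one with LPS share the unstimulated libraries.

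Hk2 stood at 16.6, 17.9, 13.8 and 12.7 FPKM with IL4CD40, and all 4 libraries exceeded the highest unstimulated value (log2 change 2.05, SE 0.20, edgeR adjusted p = 3.82e-05). Slc16a1 stood at 28.9, 31.7, 23.3 and 22.3 FPKM (1.92, SE 0.29, edgeR adjusted p = 0.000376) and Ldha at 210, 219, 181 and 172 (1.06, SE 0.22, edgeR adjusted p = 0.00251). In these 3 genes replicates 1 and 2 of the IL4CD40 group lay above replicates 3 and 4, as in the unstimulated group. Pfkp stood at 12.8, 12.4, 13.1 and 13.9 FPKM (0.75, SE 0.19, edgeR adjusted p = 0.00650) and Pgk1 at 108, 114, 109 and 113 (0.63, SE 0.19, edgeR adjusted p = 0.0183). Both were above all unstimulated libraries, as was Pkm at 97.8, 105, 95.8 and 96.1 FPKM (0.35, SE 0.11, edgeR adjusted p = 0.0189). The Pkm call was lost when IL4CD40 replicate 2, unstimulated replicate 3 or unstimulated replicate 4 was left out (edgeR adjusted p = 0.0513, 0.0718 and 0.0505).

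Aldoa stood at 158, 166, 206 and 211 FPKM with IL4CD40, with replicates 1 and 2 inside the unstimulated range and replicates 3 and 4 above it (0.37, edgeR adjusted p = 0.177). Eno1 stood at 53.5 to 56.2 FPKM (-0.21, edgeR adjusted p = 0.204) and Slc2a1 at 10.3 to 13.1 (-0.23, edgeR adjusted p = 0.111). The ranges of all 3 overlapped those of unstimulated cells. Gapdh stood at 3.22, 3.02, 9.75 and 3.85 FPKM, with replicate 3 far above the rest (0.83, edgeR adjusted p = 0.0842).

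The size of these changes depended on which replicates were used, and for several genes so did the direction. The fits to a pair of replicates leave out libraries of both groups, so a shift cannot be assigned to the unstimulated ones alone. With replicates 1 and 2 of each group alone, LPS gave 3 members higher and 5 lower, beside 4869 and 5013 of 14826 genes. With replicates 3 and 4 alone it gave 7 higher and 1 lower, beside 5174 and 5517 of 14717 genes. Hk2 (log2 change 2.46 and 3.12), Slc16a1 (1.67 and 2.81) and Ldha (0.46 and 1.40) were called higher in both fits, and Eno1 was below 0 in both (-0.79 and -0.25). Aldoa (-0.12 and 0.77) and Pgk1 (-0.16 and 0.76) were called lower in the first fit and higher in the second, and Pfkp (-0.03 and 0.61) and Gapdh (-0.44 and 0.14) also lay on opposite sides of 0. For IL4CD40, Hk2, Slc16a1, Ldha, Pfkp, Pgk1 and Pkm were called higher in both fits. Aldoa, Eno1 and Slc2a1 were called lower with replicates 1 and 2 alone, and Aldoa and Gapdh higher with replicates 3 and 4 alone. Hk2 gave 1.90 and 2.28, Slc16a1 1.64 and 2.40, and Ldha 0.81 and 1.42. On opposite sides of 0 were Aldoa (-0.21 and 1.06), Gapdh (-0.09 and 1.60), Eno1 (-0.47 and 0.11) and Slc2a1 (-0.47 and 0.04). Beside both stimulus comparisons, B-cell markers summed to 1982 to 2793 FPKM in unstimulated cells against 1062 to 1138 with LPS and 1124 to 1312 with IL4CD40, with 3 of the 5 lower for each stimulus and 0 higher. Myeloid markers were lower for 3 of 5 with LPS and for 4 of 5 with IL4CD40. Their part in the result was not tested.

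**Figure D2:**
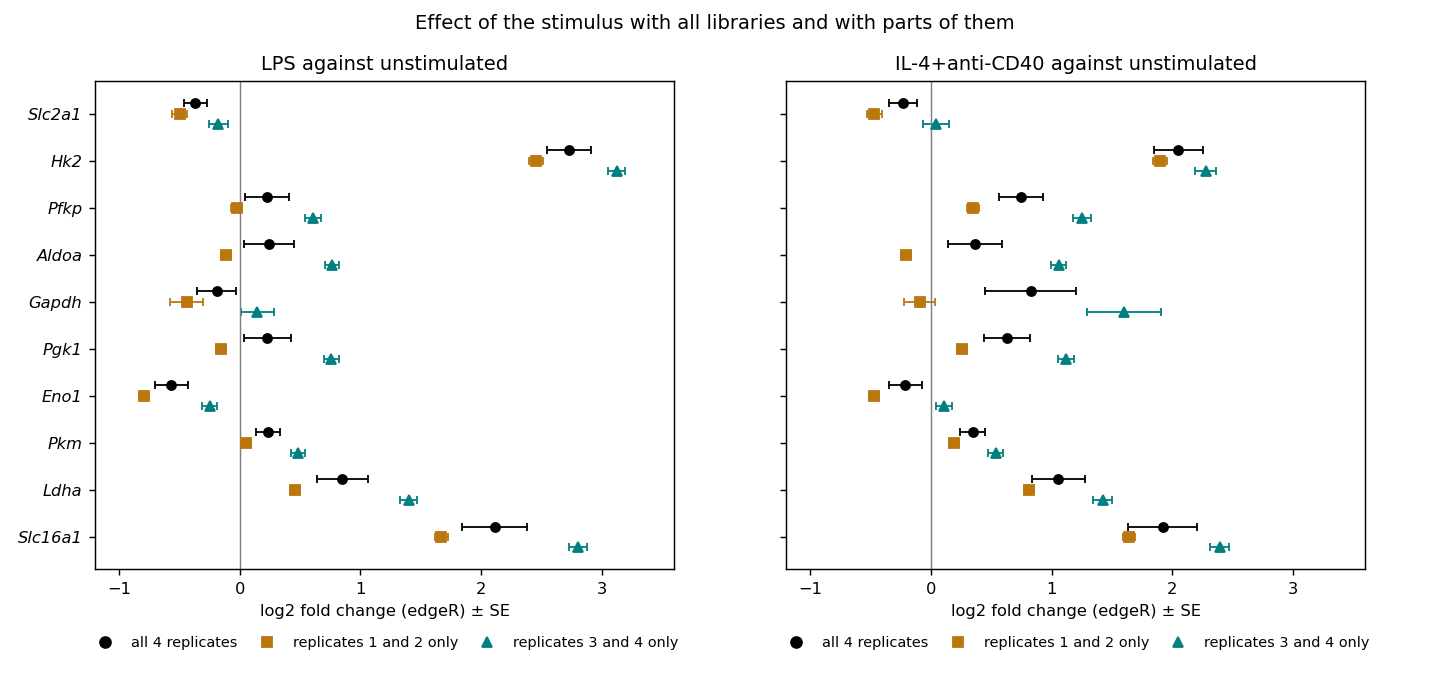
Log2 change of each gene against unstimulated cells (x axis, with SE) for LPS and for IL4CD40, fitted with all 4 replicates, with replicates 1 and 2 only, and with replicates 3 and 4 only. Hk2, Slc16a1 and Ldha lie above 0 in all 3 fits for both stimuli, whereas 4 genes for LPS (Pfkp, Aldoa, Gapdh and Pgk1) and 4 for IL4CD40 (Slc2a1, Aldoa, Gapdh and Eno1) lie on opposite sides of 0 in the fits to each pair.

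DSF divided the route in LPS-stimulated cells. The 3 genes that the stimulus had raised, Hk2, Ldha and Slc16a1, fell, while Slc2a1, Pfkp, Aldoa, Gapdh, Pgk1 and Pkm rose and Eno1 did not pass the test. The 6 members higher and 3 lower stand beside 35.1% and 36% of 14154 genes, and 9 had groups that did not overlap, beside 64.4% of all genes. The median log2 change was 0.40 for the members and 0.00 for all genes. Scaling by total reads moved the median gene by -0.208 and the share of calls that were higher from 49.4% to 34.2%. With it the call of Pkm was lost and Eno1 was called lower (-0.24, edgeR adjusted p = 2.61e-05). This comparison shares the LPS libraries with that of LPS against unstimulated cells, so the opposite signs of Hk2, Ldha and Slc16a1 are not independent of each other.

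Hk2 stood at 9.57, 9.64, 9.50 and 9.18 FPKM with LPS and DSF, below every LPS library with vehicle and above every unstimulated one. The log2 change was -1.35 (SE 0.045, edgeR adjusted p = 8.33e-19). Ldha stood at 103, 119, 108 and 117 FPKM, all below the LPS libraries and between the pairs of unstimulated ones (-0.59, SE 0.045, edgeR adjusted p = 1.45e-11). Slc16a1 stood at 19.9, 21.5, 19.3 and 21.0 FPKM, below LPS alone and above unstimulated cells (-0.56, SE 0.045, edgeR adjusted p = 4.95e-11).

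Slc2a1 stood at 23.6, 21.5, 24.3 and 23.4 FPKM, above all LPS libraries with vehicle and all unstimulated libraries. Its log2 change was 1.19 (SE 0.051, edgeR adjusted p = 1.82e-16), so the transporter of glucose and the first kinase moved in opposite directions. Aldoa stood at 333, 362, 342 and 375 FPKM, above every library without DSF in that experiment (1.07, SE 0.043, edgeR adjusted p = 3.75e-17). Pgk1 stood at 125, 137, 137 and 143 FPKM (0.70, SE 0.045, edgeR adjusted p = 4.84e-13) and Pfkp at 13.9, 12.0, 13.5 and 12.5 (0.53, SE 0.050, edgeR adjusted p = 9.39e-10). The rise of Pkm was smaller, with 105, 111, 108 and 116 FPKM (0.28, SE 0.040, edgeR adjusted p = 8.37e-07). Gapdh stood at 5.21, 4.40, 5.44 and 9.37 FPKM (1.33, SE 0.16, edgeR adjusted p = 3.70e-08). Eno1 stood at 38.9, 43.1, 39.6 and 44.5 FPKM, overlapping the LPS libraries (-0.03, edgeR adjusted p = 0.578).

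In IL4CD40-stimulated cells DSF again lowered Hk2, Ldha and Slc16a1 and raised Slc2a1, Aldoa, Pgk1, Pkm and, here, Eno1, while Pfkp and Gapdh did not pass the test. The 5 members higher and 3 lower stand beside 30.1% and 31.6% of 14275 genes, and 8 had groups that did not overlap, beside 57.3% of all genes. The median log2 change was 0.13 for the members and -0.02 for all genes. Total-read scaling moved the median gene by -0.149 and the share of calls that were higher from 48.8% to 35.9%, and with it the calls of Pkm and Eno1 were lost. The Eno1 call was also lost with all 20 libraries in the fit (0.23, edgeR adjusted p = 0.0601). The IL4CD40 libraries with vehicle are those of the comparison with unstimulated cells.

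Hk2 stood at 5.58, 5.43, 4.70 and 5.92 FPKM, far below the vehicle libraries and overlapping the unstimulated range (-1.51, SE 0.11, edgeR adjusted p = 1.34e-06). Ldha stood at 126, 114, 126 and 116 FPKM (-0.72, SE 0.076, edgeR adjusted p = 1.11e-05) and Slc16a1 at 17.7, 17.3, 17.5 and 17.1 (-0.63, SE 0.095, edgeR adjusted p = 0.000153). Every DSF library was below every vehicle library for these genes. In the other direction Slc2a1 stood at 22.1, 21.5, 22.1 and 22.6 FPKM (0.95, SE 0.077, edgeR adjusted p = 2.30e-06) and Aldoa at 344, 357, 376 and 379 (0.95, SE 0.096, edgeR adjusted p = 8.19e-06). Both groups lay above all vehicle libraries. Pgk1 stood at 155, 145, 160 and 151 FPKM (0.44, SE 0.048, edgeR adjusted p = 1.52e-05), Pkm at 115, 112, 116 and 114 (0.19, SE 0.047, edgeR adjusted p = 0.00389) and Eno1 at 63.6, 60.4, 63.3 and 62.4 (0.17, SE 0.043, edgeR adjusted p = 0.00454). These were smaller rises, without overlap between the groups. Pfkp stood at 13.3, 14.8, 11.9 and 12.9 FPKM, with 1 library above and 1 below all those with vehicle (0.00, edgeR adjusted p = 0.979). Gapdh stood at 4.85, 4.85, 5.77 and 5.93 FPKM (0.08, edgeR adjusted p = 0.835), and without IL4CD40 replicate 3 its log2 change was 0.65 (edgeR adjusted p = 0.00102).

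With replicates 1 and 2 alone, and with replicates 3 and 4 alone, the members called for DSF after LPS were the same as with all replicates. After IL4CD40 the calls of all replicates also held in both fits, and replicates 1 and 2 added Gapdh and Pfkp as higher. Gapdh (0.63 and -0.25) and Pfkp (0.15 and -0.14) lay on opposite sides of 0. Beside the DSF comparisons, B-cell markers summed to 792 to 875 FPKM with LPS and DSF against 1062 to 1138 with LPS, and to 987 to 1063 against 1124 to 1312 for IL4CD40. All 5 B-cell markers were lower with DSF after LPS, and 3 were lower and 1 higher after IL4CD40, whereas of 5 myeloid markers 1 was higher and 1 lower after LPS and 3 were higher after IL4CD40. Plasma-cell markers summed to 109 to 122 FPKM against 81.0 to 86.4 after LPS, with 3 of 4 higher and 1 lower, and to 137 to 145 against 119 to 125 after IL4CD40, with 2 of 4 higher. Neutrophil markers summed to 16.5 to 19.8 against 13.1 to 13.9 and to 15.4 to 18.4 against 9.75 to 13.9, and erythroid markers to 2.67 to 4.51 against 1.55 to 3.03 and to 2.72 to 3.85 against 1.48 to 1.89. Their part in the result was not tested.

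**Figure D3:**
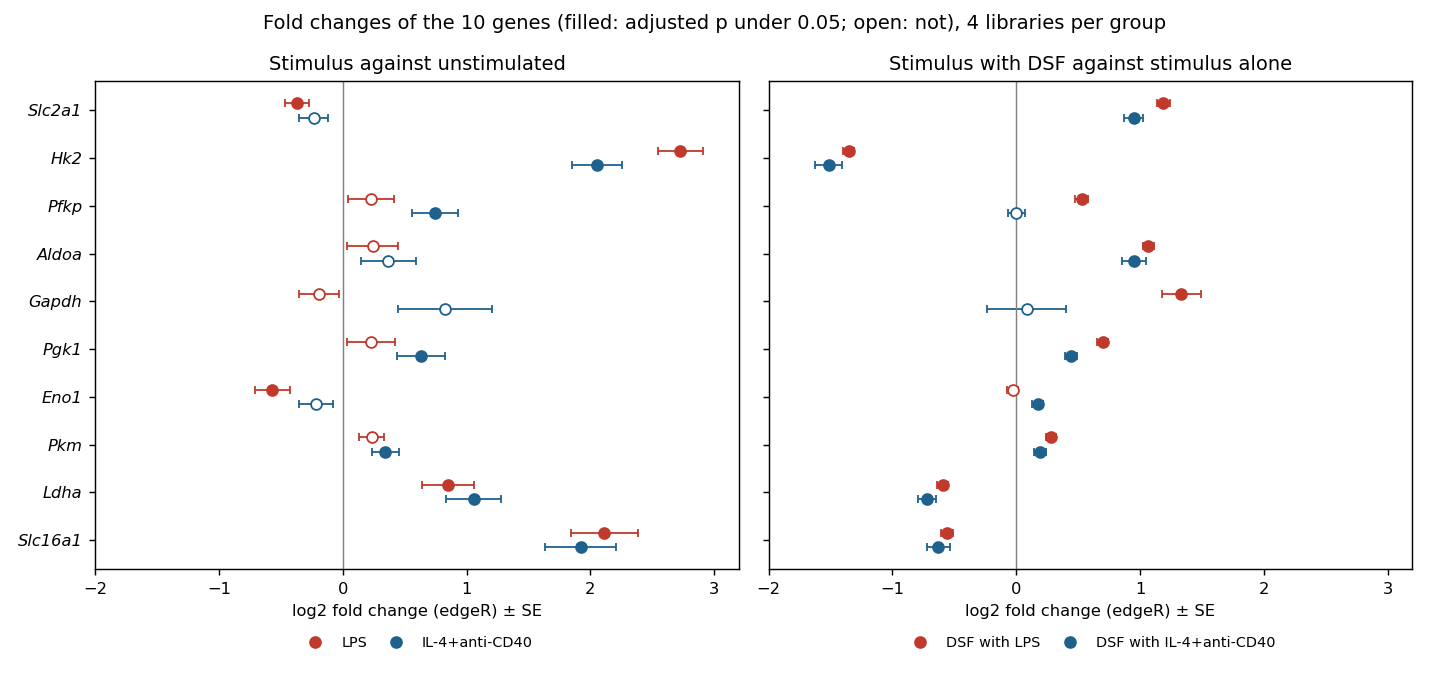
Log2 change of each gene (x axis, with SE) in the first experiment, on the left for each stimulus against unstimulated cells and on the right for DSF against vehicle within each stimulus, with filled symbols where edgeR's adjusted p was under 0.05. Hk2, Ldha and Slc16a1 lie above 0 on the left and below 0 on the right, and Slc2a1 and Aldoa lie near 1 on the right for both stimuli.

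Whether the DSF effect itself differed between the stimuli was tested as an interaction. For Pfkp the effect was larger after LPS by 0.52 on the log2 scale (SE 0.093, edgeR adjusted p = 0.000654), and for Pgk1 by 0.26 (SE 0.072, edgeR adjusted p = 0.0194). Gapdh gave 1.24 (SE 0.41, edgeR adjusted p = 0.0495) and Eno1 -0.21 (SE 0.068, edgeR adjusted p = 0.0470). The 3 members higher and 1 lower stand beside 7.92% and 6.96% of 15130 genes, and total-read scaling moved the share of calls that were higher from 53.2% to 36.7%. Of 16 fits that left out 1 library each, 12 lost the Gapdh call and 10 the Eno1 call, with edgeR adjusted p up to 0.123 and 0.103. Without IL4CD40 replicate 3 the Gapdh value fell to 0.67 (edgeR adjusted p = 0.0957), and its call was also lost with total-read scaling (edgeR adjusted p = 0.0621), with DESeq2's size factors in edgeR (adjusted p = 0.0549) and with DESeq2 (adjusted p = 0.0701). With all genes of any count the calls of Pgk1 (edgeR adjusted p = 0.0653) and Eno1 (edgeR adjusted p = 0.109) were lost, and with all 20 libraries in the fit none of the 10 members was called (edgeR adjusted p = 0.197 for Pfkp and 0.653 for Pgk1). For Hk2 (0.16, edgeR adjusted p = 0.429), Ldha (0.12, edgeR adjusted p = 0.439), Slc16a1 (0.07, edgeR adjusted p = 0.762), Aldoa (0.11, edgeR adjusted p = 0.557) and Slc2a1 (0.23, edgeR adjusted p = 0.0881) a difference was not detected, which does not show that the effects were equal.

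Between the stimuli with vehicle, LPS gave the higher Hk2 (log2 difference 0.74, SE 0.091, edgeR adjusted p = 4.89e-05). LPS gave the lower Pfkp (-0.47, edgeR adjusted p = 5.11e-05), Pgk1 (-0.35, edgeR adjusted p = 0.000109), Eno1 (-0.30, edgeR adjusted p = 0.000163) and Gapdh (-0.97, edgeR adjusted p = 0.0386), the last lost on leaving out any 1 of the LPS libraries (edgeR adjusted p = 0.0747 to 0.0966). The 1 member higher and 4 lower stand beside 22.3% and 17.3% of 14078 genes, and total-read scaling moved the median gene by -0.134 and the share of calls that were higher from 56.3% to 34%. Slc16a1 (0.25, edgeR adjusted p = 0.0571) and Ldha (-0.15, edgeR adjusted p = 0.114) did not pass.

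Cells with a stimulus and DSF did not return to the unstimulated pattern. With LPS and DSF, 8 members were higher and 1 lower than in unstimulated cells, beside 34.3% and 37.3% of 14663 genes, and with IL4CD40 and DSF 8 were higher and 0 lower, beside 33.4% and 35.3% of 14678. Total-read scaling moved the median gene by -0.409 and -0.308, and left 5 members higher in each comparison, with the share of all calls that were higher falling from 47.9% to 29.7% and from 48.6% to 31.6%. Aldoa was higher by 1.28 and 1.33 (edgeR adjusted p = 0.000564 and 0.000526), Slc16a1 by 1.53 and 1.30 (0.000771 and 0.00213), Pgk1 by 0.90 and 1.08 (0.00306 and 0.00119) and Slc2a1 by 0.79 and 0.73 (0.000122 and 0.000202) on the log2 scale. Hk2 was still higher by 1.35 after LPS and DSF (edgeR adjusted p = 0.000122) and by 0.55 after IL4CD40 and DSF (edgeR adjusted p = 0.0274), the latter with overlapping ranges and lost in 5 of the fits that left out 1 library (edgeR adjusted p = 0.0543 to 0.0670). Ldha did not differ at the threshold in either (0.23 and 0.34, edgeR adjusted p = 0.354 and 0.174). Eno1 was lower after LPS and DSF (-0.62, edgeR adjusted p = 0.00387) and near 0 after IL4CD40 and DSF (-0.03, edgeR adjusted p = 0.853). All these comparisons share the unstimulated libraries and their split. With replicates 1 and 2 alone Eno1 was called lower in both comparisons, and Ldha after LPS and DSF (-0.18, edgeR adjusted p = 0.0251). With replicates 3 and 4 alone Eno1 was called lower after LPS and DSF and higher after IL4CD40 and DSF, and Ldha higher in both. The other members were called higher in each of these fits.

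The members are each 1 of several genes for the same step, and the share of each within its family was computed from the FPKM values. The size of a share therefore depends on the deposited gene lengths, above all for Pfkp. Hk2 made up 30.9 ± 9.70% of the summed level of Hk1, Hk2 and Hk3 in unstimulated cells, 80.5 ± 0.886% with LPS and 80.1 ± 4.24% with IL4CD40. With DSF its share was 48.4 ± 0.960% after LPS and 43.3 ± 2.09% after IL4CD40. The share thus rose with each stimulus and fell with DSF, without overlap between the groups, although the unstimulated libraries were split here too, at 38.4%, 40.2%, 22.4% and 22.8%. Over 24 such comparisons an exact two-sided permutation test of 4 against 4 libraries, which has 70 splits, could go no lower than p = 0.0286, and 20 comparisons, all 4 of Hk2 among them, reached it (adjusted p = 0.0343). Hk1, the hexokinase of most tissues, moved against Hk2 on the log2 scale: -0.50 with LPS, -1.17 with IL4CD40, 0.61 with DSF after LPS and 0.80 after IL4CD40 (edgeR adjusted p = 0.0092, 0.00016, 4.73e-11 and 1.32e-05). Hk3 did likewise, with -0.48, -1.17, 1.66 and 1.57 (edgeR adjusted p = 0.0172, 0.000568, 6.57e-10 and 1.35e-05), from a low level in unstimulated cells. Hk3 averaged 0.938 FPKM there in replicates 1 and 2 and 1.04 in replicates 3 and 4.

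Pfkp made up 37.5 ± 4.46% of the phosphofructokinase genes Pfkp, Pfkl and Pfkm in unstimulated cells, 44.8 ± 0.996% with LPS and 49.7 ± 4.37% with IL4CD40, and DSF took it to 66.7 ± 1.92% and 63.8 ± 3.66%. All 4 differences reached the smallest exact permutation p. After IL4CD40 and DSF this came with no change of Pfkp itself at the threshold, while Pfkl, the liver-type subunit, fell by 0.91 on the log2 scale (edgeR adjusted p = 1.14e-05), and by 0.92 after LPS and DSF (edgeR adjusted p = 2.03e-14). Slc2a1 made up 69.0 ± 10.7% of the summed level of Slc2a1 and Slc2a3, the transporter GLUT3, in unstimulated cells and 88.6 ± 1.28% and 87.4 ± 0.653% in the DSF groups, against 76.6 ± 1.05% with LPS and 71.9 ± 3.44% with IL4CD40. The unstimulated libraries stood at 78.2%, 78.3%, 58.8% and 60.8%, on both sides of the stimulated groups. The DSF differences reached the smallest exact permutation p and those of the stimuli did not (exact permutation, adjusted p = 0.468 and 0.629). Slc16a1 made up 75.1 ± 7.71% of Slc16a1 and Slc16a3 in unstimulated cells, 98.5 ± 0.419% with LPS and 94.5% to 95.6% with IL4CD40, and 96.9 ± 0.288% and 91.9 ± 0.980% with DSF. Aldoa was at least 97.9% of Aldoa and Aldoc, and Ldha at least 99.3% of Ldha and Ldhb, in every library of the first experiment.

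**Figure D4:**
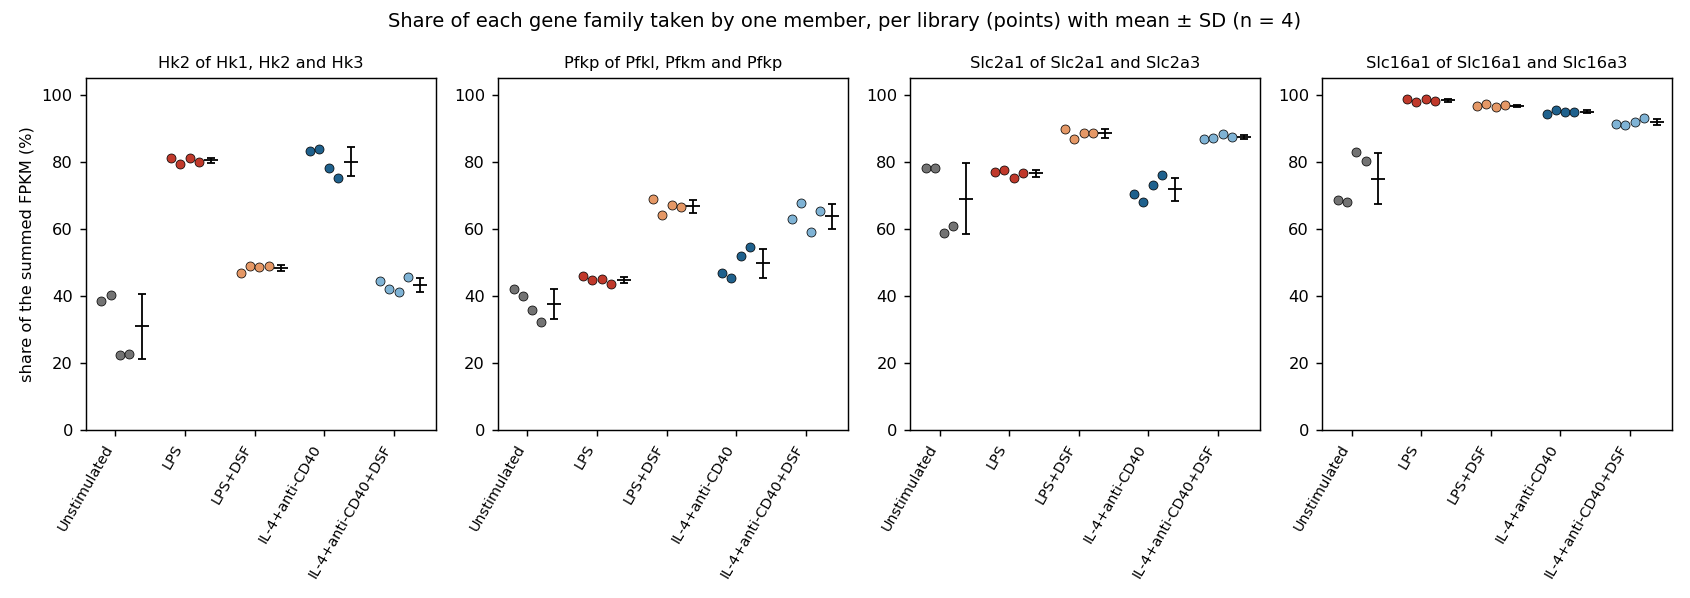
Share of Hk2, Pfkp, Slc2a1 and Slc16a1 in the summed FPKM of the genes for the same step (y axis, percent) in each library of the first experiment by group (x axis), with the mean and SD of 4 replicates. The Hk2 share is 75.1% to 84.0% in the libraries with a stimulus and vehicle and 41.1% to 49.1% in the DSF libraries, and the Pfkp share is highest in the DSF groups.

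After a stimulus, the other genes of the pathway were called lower more often than higher. Of 30 other glycolysis and transport genes, 24 were tested against unstimulated cells, of which 4 were higher and 15 lower with LPS (median log2 change -0.53) and 4 higher and 10 lower with IL4CD40 (-0.41). Over all genes the shares called higher and lower were 29.6% and 33.3% with LPS and 30.4% and 32.1% with IL4CD40. Slc2a8, a glucose transporter, fell by 2.22 and 2.53 (edgeR adjusted p = 0.000112 and 5.29e-05), Aldoc, the brain-type aldolase, fell by 2.56 and 2.06 (edgeR adjusted p = 4.86e-05 and 0.000337), and Slc16a3, the transporter MCT4, fell by 2.53 with LPS (edgeR adjusted p = 0.00397). Slc16a7, the transporter MCT2, fell by 3.22 with IL4CD40 (edgeR adjusted p = 0.000842), where Slc2a6, a transporter of lysosomes, rose by 2.93 (edgeR adjusted p = 0.00126). Among those that rose was Pgam1, phosphoglycerate mutase, by 0.89 and 1.08 (edgeR adjusted p = 0.00655 and 0.00281), and Bsg, the chaperone basigin that carries MCT1 to the membrane, by 0.29 and 0.46 (edgeR adjusted p = 0.015 and 0.00207). These sizes differed between the pairs of replicates: with replicates 1 and 2 only and with replicates 3 and 4 only, Slc2a6 gave 2.23 and 4.44 and Slc16a7 -1.90 and -3.89 with IL4CD40, and Slc16a3 -3.22 and -1.05 with LPS. Several of these genes were low in unstimulated cells. Replicates 1 and 2, and then 3 and 4, averaged 0.333 and 1.29 FPKM for Slc16a7, 1.26 and 2.17 for Aldoc and 1.44 and 2.16 for Slc2a8. With DSF, 23 were tested, with 9 higher and 8 lower after LPS (-0.06) and 7 higher and 9 lower after IL4CD40 (-0.13), beside 35.1% and 36% of all genes and 30.1% and 31.6%. Eno2, the neuronal enolase, rose by 1.86 and 1.04 (edgeR adjusted p = 2.86e-15 and 0.000347), while Tpi1, triosephosphate isomerase, fell by 1.17 and 0.88 (edgeR adjusted p = 6.18e-16 and 3.51e-05) and Pgam1 by 0.50 and 0.59 (edgeR adjusted p = 1.15e-09 and 4.44e-05). Eno2 was low in unstimulated cells, averaging 1.18 FPKM in replicates 1 and 2 and 0.187 in replicates 3 and 4. Tpi1 acts after aldolase and Pgam1 after phosphoglycerate kinase, and both fell where Aldoa and Pgk1 rose. Pgam1 and Bsg were chosen for their place in the route after their values were seen.

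Among 22 listed regulators 20 were tested, and the shares of all genes just given for each comparison stand beside the counts of this list and of the next ones too. With LPS 5 were higher and 10 lower (median log2 change -0.18), and with IL4CD40 3 higher and 10 lower (-0.41). Myc, the transcription factor that drives growth and glycolysis genes, rose by 3.65 and 2.41 (edgeR adjusted p = 1.07e-06 and 9.78e-06), and Txnip, an inhibitor of glucose uptake, fell by 2.01 and 1.67 (edgeR adjusted p = 2.53e-05 and 7.08e-05). Pdk2, a kinase that holds pyruvate dehydrogenase inactive, fell by 2.34 and 2.61 (edgeR adjusted p = 2.4e-05 and 3.97e-06). In the fits to each pair of replicates these 3 genes kept their sign, with Myc at 3.39 and 4.03 for LPS and 2.21 and 2.69 for IL4CD40. With DSF 5 were higher and 10 lower after LPS (-0.09) and 4 higher and 8 lower after IL4CD40 (-0.06). Arrdc4, an arrestin related to Txnip, rose by 1.81 after LPS (edgeR adjusted p = 8.67e-07). After IL4CD40 Epas1, the factor HIF-2α, rose by 1.98 (edgeR adjusted p = 0.000332) and Egln3, an oxygen-sensing prolyl hydroxylase, fell by 2.11 (edgeR adjusted p = 5.95e-05). These genes were low in unstimulated cells, and Epas1 was near the floor. Replicates 1 and 2, and then 3 and 4, averaged 0.0856 and 0.0986 FPKM for Epas1, 0.460 and 0.581 for Arrdc4 and 0.988 and 0.159 for Egln3. Pdk1, like Pdk2 a kinase of pyruvate dehydrogenase, fell by 1.64 and 1.44 (edgeR adjusted p = 4.61e-14 and 6.55e-06), and Myc by 0.44 and 0.63 (edgeR adjusted p = 3.91e-10 and 1.18e-05). Hif1a, the oxygen-regulated subunit, fell by 0.25 after LPS (edgeR adjusted p = 6.55e-06), with -0.01 after IL4CD40 (edgeR adjusted p = 0.908).

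Of 15 hypoxia targets outside glycolysis, 13 were tested against unstimulated cells, with 2 higher and 7 lower after LPS (median log2 change -0.72) and 3 higher and 7 lower after IL4CD40 (-0.91). Ankrd37 fell by 3.61 and 2.39 (edgeR adjusted p = 6.58e-05 and 0.000325). Ddit4, an inhibitor of mTORC1, and Car9, a carbonic anhydrase, fell by 2.83 and 1.89 with LPS (edgeR adjusted p = 0.000636 and 0.0148). Ddit4 averaged 22.2 FPKM in unstimulated replicates 1 and 2 and 70.3 in 3 and 4, and Car9 was low, at 0.246 and 0.282. With IL4CD40 Adm and Vegfa, named below, rose by 3.70 and 2.44 (edgeR adjusted p = 1.37e-05 and 0.0153). Vegfa was 10.9 times higher in unstimulated replicates 1 and 2 than in 3 and 4, and its change with IL4CD40 was 1.38 and 5.19 in the fits to each pair. With DSF 12 were tested, with 9 higher and 2 lower after LPS (1.01) and 9 higher and 1 lower after IL4CD40 (0.90), while the median of all genes was 0.00 and -0.02. Adm, adrenomedullin, rose by 2.23 and 0.79 (edgeR adjusted p = 1.09e-22 and 1.86e-05), Vegfa, the vascular growth factor, by 2.06 and 0.88 (1.74e-20 and 2.05e-05), and Ndrg1, a stress-response gene, by 1.62 and 2.43 (1.48e-13 and 4.89e-06). P4ha1, a collagen prolyl hydroxylase, rose by 1.75 and Mxi1, a Max partner, by 1.16 after IL4CD40 and DSF (edgeR adjusted p = 1.61e-06 and 3.62e-06). Of 7 pentose phosphate genes, the branch that takes glucose 6-phosphate away from glycolysis, 3 were higher and 1 lower with LPS and 2 higher and 1 lower with IL4CD40. Pgd, phosphogluconate dehydrogenase, rose by 0.91 and 0.69 (edgeR adjusted p = 0.00357 and 0.0141) and Tkt, transketolase, by 0.26 and 0.48 (edgeR adjusted p = 0.0368 and 0.00382). With DSF 2 were higher, Pgd (0.45 and 0.40) and Taldo1, transaldolase (0.54 and 0.65), and 4 were lower for each stimulus, among them Rpe (-0.58 and -0.56), the epimerase of the branch. Of the genes of these 4 lists called against unstimulated cells with either stimulus and tested again in the fits to a pair of replicates, 1 turned its direction, Kdm3a, a histone demethylase, for IL4CD40 (0.03 with replicates 3 and 4 only). The pairs are parts of the libraries that gave those calls, so their signs were largely set beforehand. Members on opposite sides of 0 in the pairs were likewise not called with all replicates. The count therefore does not show the lists to be less affected than the members. These lists hold different numbers of genes at different levels, and their counts describe the lists only.

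The second experiment repeated the stimuli and DSF with 1 library each, so its values have no replicate check, and its intervals are exact binomial 95% intervals that cover counting error only. Hk2 stood at 3.66 FPKM unstimulated, 14.7 with LPS and 15.2 with IL4CD40, and at 4.70 and 3.78 with DSF. Ldha stood at 103, 179 and 232 FPKM, and at 55.2 and 52.7 with DSF, below the unstimulated library. Slc16a1 stood at 5.78, 27.5 and 21.0 FPKM, and at 10.8 and 10.4 with DSF. Slc2a1 stood at 15.4, 12.8 and 12.3 FPKM, and at 60.6 and 51.3 with DSF, the highest levels of this gene in either experiment. At 2-fold or more, 2 members were higher and 0 lower with LPS (8.62% and 9.88% of 14275 genes) and 3 higher and 0 lower with IL4CD40 (10.7% and 13.7%). With DSF 2 were higher and 3 lower for each stimulus, beside 20.3% and 19.5% of genes after LPS and 21.9% and 20.3% after IL4CD40.

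The log2 ratio of DSF to DMSO was 2.25 (2.14 to 2.36) for Slc2a1, -1.64 (-1.79 to -1.49) for Hk2, -1.69 (-1.75 to -1.64) for Ldha and -1.34 (-1.46 to -1.23) for Slc16a1 after LPS. After IL4CD40 it was 2.07 (1.96 to 2.19) for Slc2a1, -1.99 (-2.17 to -1.82) for Hk2, -2.13 (-2.19 to -2.07) for Ldha and -1.001 (-1.13 to -0.87) for Slc16a1. For these 4 genes the sign was that of the first experiment, and each value was farther from 0. Aldoa was an exception, with -0.32 (-0.35 to -0.28) after LPS and -0.21 (-0.25 to -0.17) after IL4CD40, where the first experiment had rises near 1. Its level was 190 FPKM unstimulated, 245 with LPS and 217 with IL4CD40, and 196 and 186 with DSF. Pgk1 gave 0.43 (0.37 to 0.49) and 0.20 (0.14 to 0.25), Pfkp 1.00 (0.92 to 1.08) and 0.54 (0.47 to 0.61), Pkm 0.25 (0.20 to 0.29) and -0.01 (-0.05 to 0.03), and Eno1 -0.30 (-0.36 to -0.24) and -0.41 (-0.47 to -0.35). Gapdh gave 2.06 and 2.50, from 226 to 1139 reads per library. Of the members called in the first experiment, the sign was the same in the second for 5 of 5 with LPS, 6 of 6 with IL4CD40, 8 of 9 with DSF after LPS and 5 of 8 with DSF after IL4CD40, and the exceptions were Aldoa for LPS and Aldoa, Eno1 and Pkm for IL4CD40. With total-read scaling the DSF counts were 7 of 9 and 4 of 8, with Pkm after LPS (-0.06) and Pgk1 after IL4CD40 (-0.05) now below 0. The share of Hk2 among hexokinases was 30.0% unstimulated, 71.0% and 78.1% with the stimuli, and 26.5% and 26.6% with DSF. The Pfkp share was 43.7% unstimulated, 40.0% with LPS, where it had risen in the first experiment, and 49.9% with IL4CD40, and 78.9% and 82.4% with DSF. The Slc2a1 share was 75.4%, 71.1% and 66.8%, and 86.6% and 87.3% with DSF. Slc16a1 was already at 93.3% unstimulated, with 98.6% and 98.3% with the stimuli and 93.9% and 91.9% with DSF.

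Among the other lists, the pentose phosphate genes and 1 hypoxia target also differed between the experiments with DSF. In the second, 0 of the 7 pentose phosphate genes lay above 0 for either stimulus (median log2 ratio -0.90 and -0.96), so that Pgd (-0.79 and -0.96) and Taldo1 (-0.45 and -0.27) had the opposite sign to the first. Of 12 hypoxia targets 8 and 9 lay above 0 (0.78 and 1.33), with Vegfa at 2.59 and 1.34 and Ndrg1 at 2.90 and 3.78, but Adm stood at -0.16 and -2.01 where it had risen in the first. Of 23 other glycolysis and transport genes 12 lay above 0 for each stimulus (0.04 and 0.02), and of 20 regulators 8 and 9 (-0.18 and -0.19). Beside the DSF values of the second experiment, given for LPS and then for IL4CD40, myeloid markers summed to 21.7 and 21.5 FPKM in the DSF libraries and 8.03 and 8.25 in the stimulated ones, erythroid markers to 92.4 and 81.0 against 36.7 and 34.1, and platelet markers to 59.5 and 51.3 against 27.3 and 21.6. Neutrophil markers summed to 3.16 and 3.18 against 0.769 and 0.779, plasma-cell markers to 178 and 178 against 87.6 and 109, and B-cell markers to 978 and 1077 against 1504 and 1325. Their part in the result was not tested.

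With ibrutinib at the same dose 0 members reached 2-fold in either direction, beside 2.81% of genes higher and 2.47% lower after LPS and 2.23% and 1.69% after IL4CD40. For each stimulus 9 of the 10 ratios lay below 0, Aldoa being the exception at 0.03 and 0.00, and the median was -0.31 after LPS and -0.47 after IL4CD40, where the median of all genes was 0.01 and 0.00. Ldha stood at 98.4 and 126 FPKM (log2 ratio -0.85, -0.89 to -0.81, and -0.87, -0.91 to -0.84) and Slc16a1 at 15.9 and 12.3 (-0.77, -0.87 to -0.68, and -0.77, -0.87 to -0.67). These were the ratios farthest from 0. Hk2 stood at 11.9 and 10.5 FPKM (-0.29 and -0.53), and its share among hexokinases was 65.0% and 69.2%. Slc2a1 stood at 11.3 and 10.9 FPKM (-0.16 and -0.17), where the DSF libraries were at 60.6 and 51.3. B-cell markers summed to 2038 and 1992 FPKM with ibrutinib, and their part in the result was not tested. DSF and ibrutinib are unrelated in structure, and with 1 library each the difference between them has no replicate check.

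**Figure D5:**
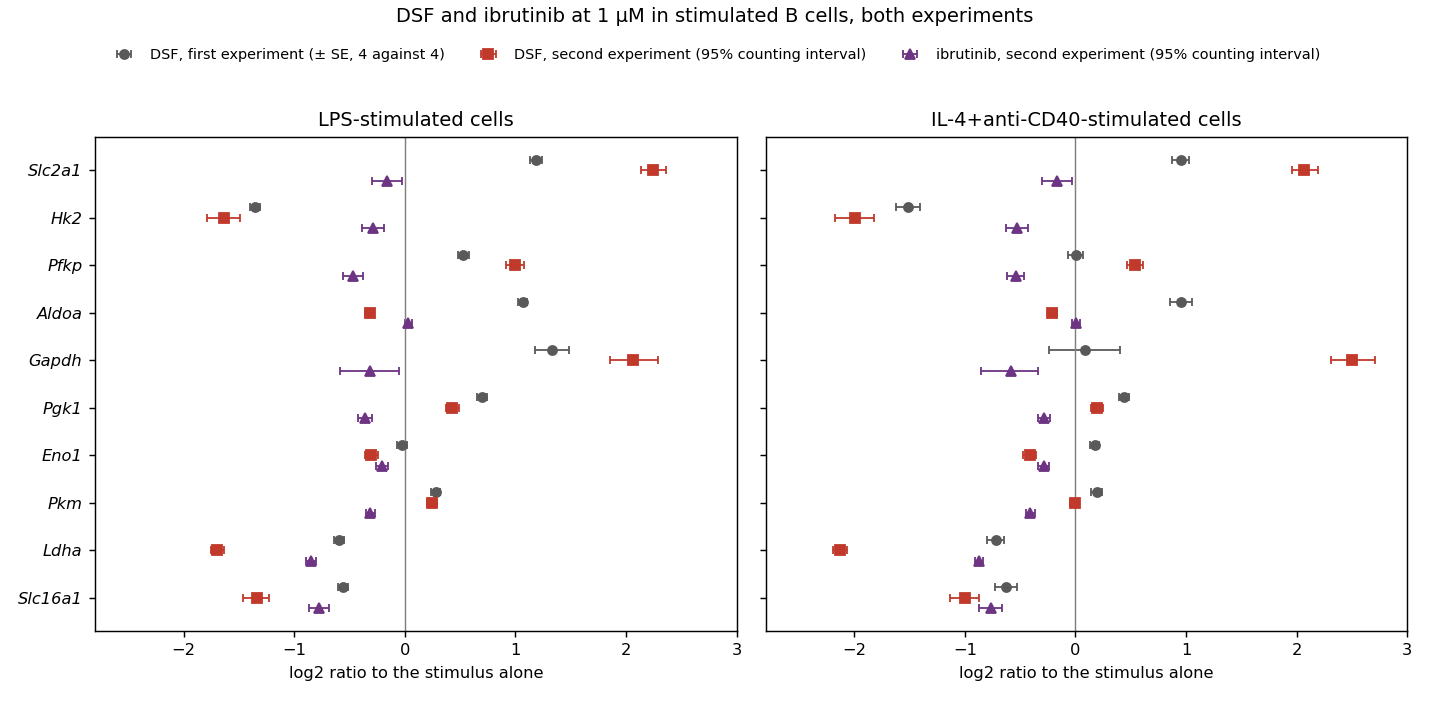
Log2 ratio of each gene with an inhibitor against the stimulus with vehicle (x axis) for LPS and for IL4CD40, with DSF in the first experiment (with SE, n = 4 against 4) and DSF and ibrutinib in the second (1 library each, bars are 95% counting intervals). Hk2, Ldha and Slc16a1 lie below 0 for both inhibitors, Slc2a1 lies above 0 for DSF in both experiments and just below 0 for ibrutinib, and Aldoa changes side between the experiments for DSF.

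Across the 20 libraries of the first experiment the 10 genes did not follow 1 pattern. Pearson's r of the log2 levels, given as a description because libraries of a group share their treatment, was 0.976 for Pgk1 and Pkm, 0.936 for Aldoa and Pgk1 and 0.878 for Slc2a1 and Aldoa, and 0.891 for Hk2 and Slc16a1, 0.856 for Ldha and Slc16a1 and 0.832 for Hk2 and Ldha. It was -0.599 for Hk2 and Eno1, -0.464 for Slc2a1 and Hk2 and -0.452 for Slc2a1 and Ldha. Among 9824 genes, those most like the mean of the members were Tuba1c (0.987), a tubulin, Lilrb4a (0.983), an inhibitory receptor, Cry1 (0.982), a repressor of the circadian clock, Cars (0.982), a transfer RNA synthetase, and Cep170b (0.980). Those most like Hk2 were St6galnac4 (0.993), a sialyltransferase, Sdad1 (0.983) and Psme2 (0.982), a proteasome activator subunit. Those most like Slc2a1 were Ube2b (0.983), a ubiquitin-conjugating enzyme, Per1 (0.983), a clock gene, and Lzts2 (0.980).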

How the data were processed

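Gene-level reads were analysed in 27 libraries of mouse splenic B cells, 20 in the first experiment and 7 in the second. Per the labels and the study's methods, the authors trimmed reads with Fastp, aligned them to mm10 with HISAT2 v2.0.5 and counted them per gene with featureCounts v1.5.0-p3. The annotation release and the strand setting are not given in the sources used here, although every member's span matched GENCODE vM21. The deposited counts are raw whole numbers. The deposited FPKM values are the authors' own scaling of those counts by length and by library. That library scaling is not the total of assigned reads. In unstimulated replicate 1 of the first experiment Slc2a1 had 1459 of 22583661 reads and 15.6 FPKM. In replicate 1 of LPS with DSF it had 1382 of 18517081 reads and 23.6 FPKM. Columns of the authors' own comparisons were not used. In 1 of the count tables, that of the second experiment, 27 gene names had turned into dates, so names were taken from the first.

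Counts were tested with edgeR 4.0.16 (quasi-likelihood, trimmed-mean scaling, filterByExpr) in R 4.3.3. Each comparison used its own groups, and the interaction used the 4 stimulated groups. Benjamini-Hochberg adjustment ran over all genes tested, with a threshold of 0.05. The second experiment was described by log2 ratios (prior count 2) with exact binomial 95% intervals, for genes with at least 10 reads on average. Shares within gene families were compared by exact two-sided permutation tests (scipy 1.17.1). Likeness was Pearson's r of log2 levels (prior count 2) over genes with at least 100 reads on average. Scripts were tested on simulated data. Replicates are biological according to the study. The members and lists were chosen with earlier results of these data known. Named list genes were the 3 with the largest change among the called genes without overlap of each list, in each comparison of a stimulus with unstimulated cells and of DSF with vehicle. Some were then also given in other comparisons, and Hif1a, Pgam1 and Bsg were added for their role after their values were seen. The alternatives were total-read scaling, no filter and a stricter one, DESeq2 1.42.0, all 20 libraries in the fit, a replicate block and leaving out each library. For the second experiment another prior count was also used, and for shares counts in place of FPKM. Fits on replicates 1 and 2 only and on replicates 3 and 4 only were chosen after seeing the data. One marker of the B-cell list is not reported here and was left out of its sums and counts.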

Additional observations from a re-analysis of the deposited data

Results flagged for a closer look

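Of 50 groups of 4 libraries tested for a value far from the others (10 genes in 5 groups), 2 stood out, and chance gives about 1 in 20. Gapdh in IL4CD40 replicate 3 was at 9.75 FPKM, where the other 3 libraries of the group were at 3.02 to 3.85, and the test of DSF on this gene in that group turned on this library, as given above. Hk2 in LPS replicate 1 was at 26.1 FPKM, where the others were at 23.8 to 24.1, a gap that left the call of Hk2 in place.

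The effect of DSF differed between the stimuli for 4 genes by the interaction test in edgeR, on the log2 scale with LPS minus IL4CD40: Pfkp 0.52, Pgk1 0.26, Gapdh 1.24 and Eno1 -0.21. The fit to all 20 libraries called none of them, and the calls of Gapdh and Eno1 were close to the threshold (adjusted p = 0.0495 and 0.0470).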

How the results depend on the processing

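Counts of members called are given here as higher or lower. They show how the calls of the members moved between settings, without the share of all genes called in each setting. With replicates 1 and 2 only, the direction turned, with a call in that fit, for Aldoa in IL4CD40 against unstimulated cells (-0.21), in LPS against unstimulated cells (-0.12) and in LPS against IL4CD40 (0.13), for Pgk1 in LPS against unstimulated cells (-0.16), and for Ldha in LPS with DSF against unstimulated cells (-0.18). With replicates 3 and 4 only, it turned likewise for Eno1 in IL4CD40 with DSF against unstimulated cells (0.28). Without a call it turned, with replicates 1 and 2 only, for Pfkp in LPS (-0.03), Gapdh in IL4CD40 (-0.09) and Ldha in IL4CD40 with DSF (-0.05), each against unstimulated cells, and for Slc2a1 in LPS against IL4CD40 (0.01). With replicates 3 and 4 only it did so for Gapdh in LPS (0.14), Eno1 (0.11) and Slc2a1 (0.04) in IL4CD40, Gapdh (-0.25) and Pfkp (-0.14) for DSF after IL4CD40, and Ldha in LPS against IL4CD40 (0.01). These fits gave 5 lower (replicates 1 and 2), and 7 higher and 1 lower (replicates 3 and 4), for LPS against 3 and 2 with all replicates, and 3 lower in place of 0 for IL4CD40, 2 in place of 1 for LPS with DSF and 1 in place of 0 for IL4CD40 with DSF, all with replicates 1 and 2. LPS against IL4CD40 gave 2 higher, in place of 1, in both fits, with either other filter on low counts, with DESeq2 and with the replicate block. Fitting all 20 libraries gave 0 higher and 0 lower for the interaction, in place of 3 and 1, and 2 lower for IL4CD40, and keeping all genes with any count gave 0 lower for the interaction. Scaling by total reads gave 3 higher, in place of 5, for DSF after IL4CD40, 1 lower for IL4CD40, 5 higher, in place of 8, for each DSF group against unstimulated cells and 7 lower, in place of 4, for LPS against IL4CD40. In the second experiment it moved the median log2 ratio of the members from 0.31 to 0.16 for LPS, from 0.54 to 0.40 for IL4CD40, from -0.03 to -0.34 for DSF after LPS and from -0.11 to -0.35 for DSF after IL4CD40. The cause of these shifts was not tested.

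Leaving out 1 library at a time gave 3 to 4 higher and 2 to 2 lower for LPS, 5 to 6 higher for IL4CD40, 6 to 6 higher and 3 to 3 lower for DSF after LPS, 5 to 6 higher and 3 to 3 lower for DSF after IL4CD40, 2 to 3 higher and 0 to 1 lower for the interaction, 1 to 2 higher and 3 to 5 lower for LPS against IL4CD40, 8 to 8 higher and 1 to 1 lower for LPS with DSF, and 7 to 8 higher for IL4CD40 with DSF. Of the values of single genes in these fits, 680 kept their call, 34 lost it and 6 gained one. The 24 family comparisons kept their calls with counts in place of FPKM. Pkm passed for LPS without unstimulated replicate 1 (0.32, edgeR adjusted p = 0.0203) or 2 (edgeR adjusted p = 0.0415). Replicate numbers were not shown to pair the samples, since the correlation of same-numbered libraries ran from -0.056 to 0.169 and passed 0.1 for 2 pairs only. With the replicate block Slc16a1 passed for LPS against IL4CD40 (0.26, edgeR adjusted p = 0.0460), and the other 79 calls were the same. In the second experiment 1 library per condition limits every value, and Gapdh is limited by its low counts.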
